A study of Mus musculus with 12 samples.

Results

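The keratin-associated proteins (Krtap genes) are small proteins rich in cysteine, or in glycine and tyrosine, that crosslink the keratin filaments of the hair shaft. Their genes lie in clusters and carry a subfamily number after the symbol. All symbols starting with Krtap were taken, apart from Krtdap, whose symbol has another prefix. This gave 52 genes in 23 subfamilies among the 23234 gene symbols of the 12 libraries. The 12 mouse ear skin RNA-seq libraries form 4 groups of 3 from animals aged 8 to 12 weeks. WT_untreated, WT_PBS and WT_Oxarol are wild-type C57BL/6J mice that received nothing, PBS or Oxarol. Oxarol is an ointment of the vitamin D3 analogue maxacalcitol, given to the ear as 100 mg holding 2.5 µg of maxacalcitol. WT_PBS and WT_Oxarol ears are labelled as 1 day after the agent, and PBS is not the ointment base.

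The libraries labelled VDRcKO_Oxarol come from mice given as K5-Cre;VDR f/f, 1 day after Oxarol, with the same text in the strain label. The keratin 5 promoter drives Cre in basal keratinocytes, which include the outer root sheath of the follicle, and not in the dermis. No untreated or PBS-treated K5-Cre;VDR f/f library is used here, so genotype, strain background and response to the ointment cannot be told apart in this group. Sample codes fall into 2 number series, whose meaning is not given. Every VDRcKO_Oxarol library is in the second, with 1 library of each wild-type group, so series and group cannot be fully told apart either. The labels do not say whether replicates are separate animals, so p-values cover only the scatter among the libraries, which could be technical. Replicate numbers follow the order of deposit and pair nothing across groups.

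Keratin-associated proteins are made late in hair formation. Cells of the hair matrix first make hair keratins, and the differentiating cortex and cuticle then make the associated proteins, in an order that differs between subfamilies. Subfamilies such as Krtap1 to Krtap3 and Krtap11 are known as high sulfur proteins, Krtap4, Krtap5, Krtap9 and Krtap17 as ultra-high sulfur proteins, and Krtap6 to Krtap8 and Krtap19 to Krtap22 as high glycine-tyrosine proteins. Most are made only in growing (anagen) follicles, and skin in the resting phase holds little of their mRNA. In bulk skin, fewer cells of a type and less RNA per cell cannot be told apart.

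The files use older names for several members. Of the 52 symbols, 44 matched a current RefSeq symbol, 7 matched an older name and 1 matched both. By the older names, Krtap16-2, Krtap16-4, Krtap16-5, Krtap16-10b and Krtap8-2 are Krtap19-1, Krtap19-4, Krtap19-3, Krtap19-9b and Krtap19-5 of RefSeq. Krtap16-7 is Krtap21-1 and Krtap16-8 is Krtap6-5. Krtap16-1 may be either Krtap16-1 or Krtap19-2 of RefSeq. It is counted with Krtap19 here, since the files list the other name of the current Krtap16-1, Gm11570, as a row of its own. Members of a subfamily can be nearly identical, so the split of reads among them is uncertain.

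The sequence before the transcription start is shown for 7 members, the whole of subfamily 3, whose pattern differs from the rest, and 4 members of other subfamilies with high levels. Each line gives 60 bases that end at the last base before the start, from RefSeq on GRCm38.p6, 5′ to 3′ on the gene's strand, a later build than the mm9 of the files and joined by name only, with a TATA-like motif in capitals (TATAAA, or TATATAAG in Krtap3-3, Krtap15 and Krtap16-5).
Krtap3-1, chr11:99566631-99566690, minus strand: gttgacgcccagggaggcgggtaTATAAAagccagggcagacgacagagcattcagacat
Krtap3-2, chr11:99556854-99556913, minus strand: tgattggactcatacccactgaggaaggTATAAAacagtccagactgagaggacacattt
Krtap3-3, chr11:99550864-99550923, minus strand: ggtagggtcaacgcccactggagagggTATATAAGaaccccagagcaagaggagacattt
Krtap4-6, chr11:99665961-99666020, minus strand: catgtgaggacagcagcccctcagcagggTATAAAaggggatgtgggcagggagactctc
Krtap15, chr16:88828949-88829008, plus strand: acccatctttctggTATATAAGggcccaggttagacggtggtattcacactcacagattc
Krtap22-2, chr16:89010760-89010819, minus strand: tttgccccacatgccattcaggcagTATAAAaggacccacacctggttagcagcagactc
Krtap16-5 (RefSeq Krtap19-3), chr16:88878039-88878098, minus strand: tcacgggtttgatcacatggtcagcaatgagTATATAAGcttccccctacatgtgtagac

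Promoters of 47 members were matched in the RefSeq table, each from 250 bases before the start to 50 bases after it. TATAAA, searched on both strands, occurred in 38 of the 47 (80.9%), against 13.6% of all 32851 promoters in the table. On the gene's strand and within 45 to 20 bases before the start, TATAAA occurred in 28 of 47 (59.6%), against 2.01% of all promoters. TATA alone, which TATAAA contains, occurred there in 35 of 47 (74.5%), against 6.17%. CTTTGA, a core of the LEF/TCF site, occurred on either strand in 13 of 47 (27.7%), against 16.003%. Within subfamily 3, the best ungapped alignment of the 60-base windows gave 59.3% identity between Krtap3-1 and Krtap3-3, 54.7% between Krtap3-1 and Krtap3-2 and 50% between Krtap3-2 and Krtap3-3. A match is a description of the letters and was not tested as a binding site.

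The values are FPKM, fragments scaled to transcript length and to the library's total, so that levels are per length. Depth is not given as counts. The spacing of low values put the read number of the other 11 libraries at 0.0403 to 0.212 of that of WT_PBS 3, the deepest, with a factor of 2 possible in each. The targeted gene went against its label at gene level. Vdr was 18.0 to 25.0 FPKM in the 3 libraries labelled VDRcKO_Oxarol and 4.87 to 10.1 FPKM in the 9 wild-type libraries, although a whole-gene value does not show whether the deleted part was read. Cyp24a1, a vitamin D target that degrades the hormone, was 66.2, 599 and 458 FPKM in the WT_Oxarol libraries and 0 to 0.271 FPKM in those labelled VDRcKO_Oxarol. Summed markers of epidermis were between 4277 and 8143 FPKM in every library. Summed macrophage markers were 628 to 834 FPKM in the VDRcKO_Oxarol libraries and 323 to 453 FPKM in wild type, and 4 of 5 tested macrophage markers rose in VDRcKO_Oxarol against WT_Oxarol. Summed dermal fibroblast markers were 3118 to 3826 FPKM in VDRcKO_Oxarol and 2037 to 2760 FPKM in wild type. In the same comparison 3 of 6 fibroblast and 2 of 5 tested ear cartilage markers rose. Over all genes 8.71% rose in it, the share to set beside the counts of these lists. Of 6 tested cycling-cell markers 0 rose and 1, Pcna, fell, and all 6 differences lay below 0. Of 5 tested melanocyte markers 1 fell, against 4.43% of all genes lower. The cycling-cell sum was 108 to 115 FPKM in VDRcKO_Oxarol, 151 to 176 FPKM in WT_Oxarol and 89.3 to 162 FPKM in the other wild-type libraries. WT_PBS 3 had a sebaceous gland sum of 391 FPKM, against 1892 or more in each other library. The low sum comes from Scd1 alone, listed at 0 there and at 1455 to 2780 FPKM in each other library. In WT_PBS 3 the other genes of the list lay within the range of the other libraries, or above it for Awat2. WT_untreated 3 had a striated muscle sum of 6947 FPKM, against 1346 to 3195 FPKM elsewhere. Their part in the results below was not tested.

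Most of the family was almost silent in 6 of the 9 wild-type libraries and abundant in the libraries labelled VDRcKO_Oxarol. The summed level of the 52 genes was 113, 113 and 725 FPKM in WT_untreated 1 to 3. It was 93.9, 94.5 and 1923 FPKM in WT_PBS 1 to 3, and 296, 50.2 and 83.9 FPKM in WT_Oxarol 1 to 3. In VDRcKO_Oxarol 1 to 3 it was 4550.0, 3077 and 1774 FPKM. The 3 VDRcKO_Oxarol sums were above every WT_untreated and WT_Oxarol sum. WT_PBS 3 exceeded VDRcKO_Oxarol 3, so the group overlapped with WT_PBS. The family made up 0.00987% of all FPKM in WT_Oxarol 2, the lowest, and 0.862% in VDRcKO_Oxarol 1, the highest.

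The same split showed in the number of members detected. Members at 1 FPKM or more numbered 3, 4 and 41 in WT_untreated, 3, 5 and 48 in WT_PBS, 35, 5 and 3 in WT_Oxarol, and 50, 50 and 48 in VDRcKO_Oxarol. Members listed at 0 numbered 44 in each of WT_untreated 1, WT_PBS 1 and WT_Oxarol 3, and 1, 1 and 2 in VDRcKO_Oxarol. The relative read numbers of these last libraries were 0.0403, 0.0477 and 0.0591 of WT_PBS 3, and those of WT_Oxarol 3 and WT_untreated 3 were 0.0647 and 0.0900, which the possible factor of 2 does not put in an order. So 3 wild-type libraries, 1 in each group, shared the hair-rich pattern of the VDRcKO_Oxarol libraries (WT_untreated 3, WT_PBS 3 and WT_Oxarol 1), and the plot of summed levels shows them apart from their groups. WT_untreated 3 and WT_PBS 3 are in the second code series, like every VDRcKO_Oxarol library, and WT_Oxarol 1 is in the first. WT_Oxarol 3, of the second series, did not share the pattern. The part of the series was not tested here.

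**Figure D1:**
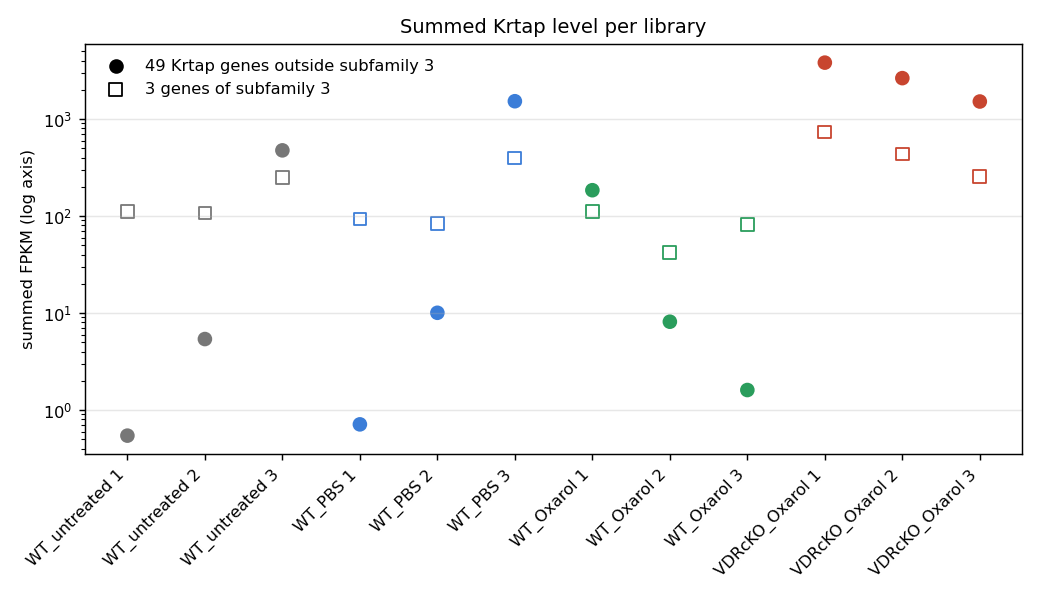
Summed FPKM per library on a log axis, with filled circles for the 49 Krtap genes outside subfamily 3 and open squares for the 3 genes of subfamily 3, coloured by group. The circles span 0.544 to 3816 FPKM while the squares stay between 42.1 and 734 FPKM.

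Subfamily 3 behaved differently from the other 49 members. Its genes encode high sulfur proteins of the hair cortex. In the 6 wild-type libraries with little other Krtap RNA, the 3 genes supplied 83.8% to 99.5% of the family's summed FPKM. In the other 6 libraries they supplied 14.1% to 37.7%. Outside subfamily 3, only Krtap7-1, Krtap16-5 and Krtap17-1 reached 1 FPKM in any of those 6 low libraries, with highest values there of 1.19, 1.17 and 1.13 FPKM. These 3 are named after their values were seen.

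Krtap3-2 was present in every library. It was 77.3, 72.8 and 89.1 FPKM in WT_untreated, 62.5, 56.4 and 125 FPKM in WT_PBS, 58.9, 28.6 and 57.0 FPKM in WT_Oxarol and 158, 96.9 and 72.5 FPKM in VDRcKO_Oxarol. VDRcKO_Oxarol lay above WT_Oxarol without overlap but overlapped with both other groups. The difference between VDRcKO_Oxarol and WT_Oxarol was 1.16 ± 0.37 (SE) on the log2(FPKM + 1) scale, the smallest among the members tested, and did not pass (limma, Benjamini-Hochberg adjusted p = 0.0610).

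Krtap3-3 followed Krtap3-2 at a lower level in the libraries poor in other Krtap RNA. It was 31.02, 29.2 and 49.4 FPKM in WT_untreated, 26.5, 21.9 and 77.3 FPKM in WT_PBS, 24.5, 10.1 and 23.0 FPKM in WT_Oxarol and 147, 90.1 and 50.7 FPKM in VDRcKO_Oxarol. The 3 VDRcKO_Oxarol values were above all WT_Oxarol and all WT_untreated values, and WT_PBS 3 exceeded VDRcKO_Oxarol 3. It rose in VDRcKO_Oxarol against WT_Oxarol by 2.23 ± 0.52 (SE; limma adjusted p = 0.0238).

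Krtap3-1 had the family pattern on top of a low base. It was 3.72, 5.69 and 111 FPKM in WT_untreated, 4.19, 6.15 and 194 FPKM in WT_PBS, 28.1, 3.36 and 2.37 FPKM in WT_Oxarol and 429, 248 and 134 FPKM in VDRcKO_Oxarol. The high values fell in the same 6 libraries as for the rest of the family. Its difference from WT_Oxarol was 5.02 ± 1.51 (SE) and did not pass (limma adjusted p = 0.0525). The ratio of Krtap3-2 to Krtap3-1 was 8.51 to 24.1 in the 6 low libraries, 2.098 in WT_Oxarol 1 and 0.368 to 0.804 in the 5 others. No other gene of the GENCODE M21 annotation overlaps any of these 3 genes.

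**Figure D2:**
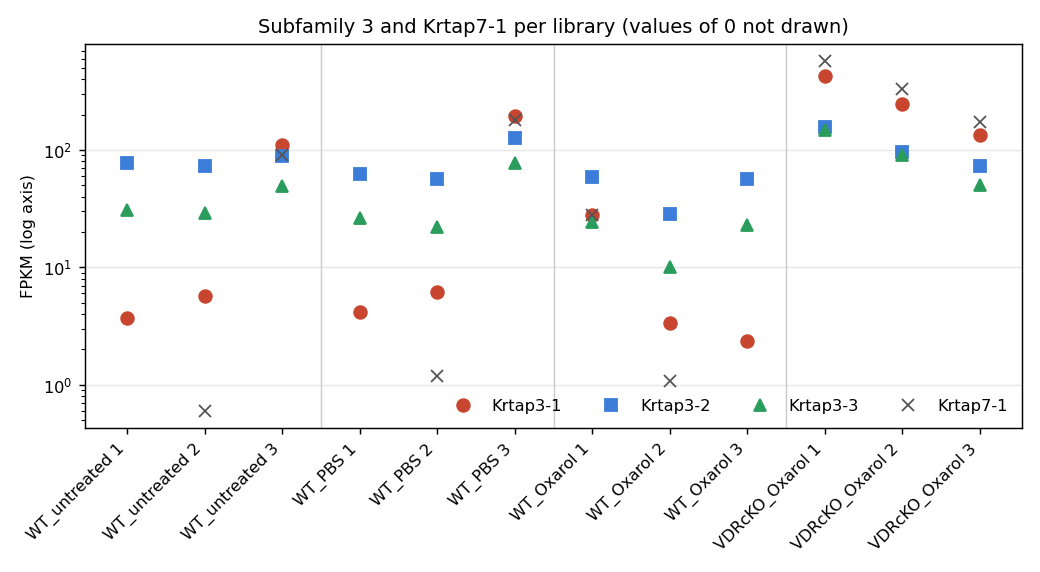
FPKM per library on a log axis for Krtap3-1, Krtap3-2, Krtap3-3 and, for comparison, Krtap7-1. Krtap3-2 stays between 28.6 and 158 FPKM in all 12 libraries, whereas Krtap3-1 spans 2.37 to 429 FPKM and Krtap7-1 is listed at 0 in 3 libraries.

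VDRcKO_Oxarol and WT_Oxarol are the 2 groups that received the ointment, and they differ in genotype. Of the 52 members, 49 passed the filter of 1 FPKM in at least 3 libraries; Krtap9-5, Krtap13 and Krtap27-1 did not. For 17 of the 49 the filter was met only with the help of VDRcKO_Oxarol libraries, so these were kept for their high level there. In limma across 14059 genes, 38 of the 49 rose and 0 fell, against 8.71% of all genes higher and 4.43% lower. Among the 32 members that had 1 FPKM in at least 3 wild-type libraries, 24 rose. The median difference of the 49 was 4.10 on the log2(FPKM + 1) scale, against 0.08 over all genes. The groups did not overlap for 48 of the 49, all higher, against 27.9% of all genes.

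The count of 38 rested on single libraries, and calls over all genes fell in the same settings. It was 2 without WT_Oxarol 2, 8 without WT_Oxarol 3, 3 without VDRcKO_Oxarol 1, 4 without VDRcKO_Oxarol 2 and 17 without VDRcKO_Oxarol 3. The share of all genes called in either direction was 2.30%, 7.37%, 3.19%, 3.42% and 4.95% in this order. With all libraries it was 13.1%. The median difference of the members stayed between 3.86 and 4.44 when any of the 12 libraries was left out. Sample codes in the labels fall into 2 series, and the second holds WT_untreated 3, WT_PBS 3, WT_Oxarol 3 and every VDRcKO_Oxarol library. Within the second series the median difference was 4.45, with only 1 WT_Oxarol library, so calls are not counted. With the code series as a term in the fit, 2 members rose, with a median of 2.87. In that fit 2.01% of all genes were called in either direction.

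Krtap12-1 and Krtap13-1 had the smallest p-values in this comparison. Krtap12-1 was 0.555, 0.202 and 0 FPKM in WT_Oxarol and 9.65, 12.2 and 6.81 FPKM in VDRcKO_Oxarol. The other wild-type values were 0, 0.0671 and 0.570 FPKM in WT_untreated and 0.294, 0.228 and 4.49 FPKM in WT_PBS, so all 3 VDRcKO_Oxarol values were above all 9. The difference from WT_Oxarol was 3.07 ± 0.49 (SE; limma adjusted p = 0.00783).

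Krtap13-1, a high sulfur member, was 0.855, 0 and 0 FPKM in WT_Oxarol and 24.3, 25.1 and 13.1 FPKM in VDRcKO_Oxarol. WT_PBS 3, at 5.42 FPKM, was the highest wild-type library and lay below all 3. The difference from WT_Oxarol was 4.10 ± 0.67 (SE; limma adjusted p = 0.00832). Krtap12-1 and Krtap13-1 kept their calls in every alternative setting apart from the second code series alone, where calls are not counted. No other of the 24 named members that rose in this comparison did so. Both had the smallest p in these same data, so their stability is not separate support. Both are among the 17 members that passed the filter only through the VDRcKO_Oxarol libraries.

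Krtap1-4, Krtap9-3 and Krtap4-1 completed the 5 smallest p-values. Krtap1-4 was 1.01, 0.0817 and 0 FPKM in WT_Oxarol and 23.7, 11.2 and 8.91 FPKM in VDRcKO_Oxarol, a rise of 3.47 ± 0.65 (SE; limma adjusted p = 0.0138). Krtap9-3 was 0.452, 0 and 0 FPKM in WT_Oxarol and 25.3, 11.2 and 10.4 FPKM in VDRcKO_Oxarol, a rise of 3.77 ± 0.73 (SE; limma adjusted p = 0.0145). Each was higher in every VDRcKO_Oxarol library than in any wild-type library. Krtap4-1 was 1.41, 0 and 0 FPKM in WT_Oxarol and 29.6, 15.01 and 8.72 FPKM in VDRcKO_Oxarol, a rise of 3.65 ± 0.74 (SE; limma adjusted p = 0.0170).

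**Figure D3:**
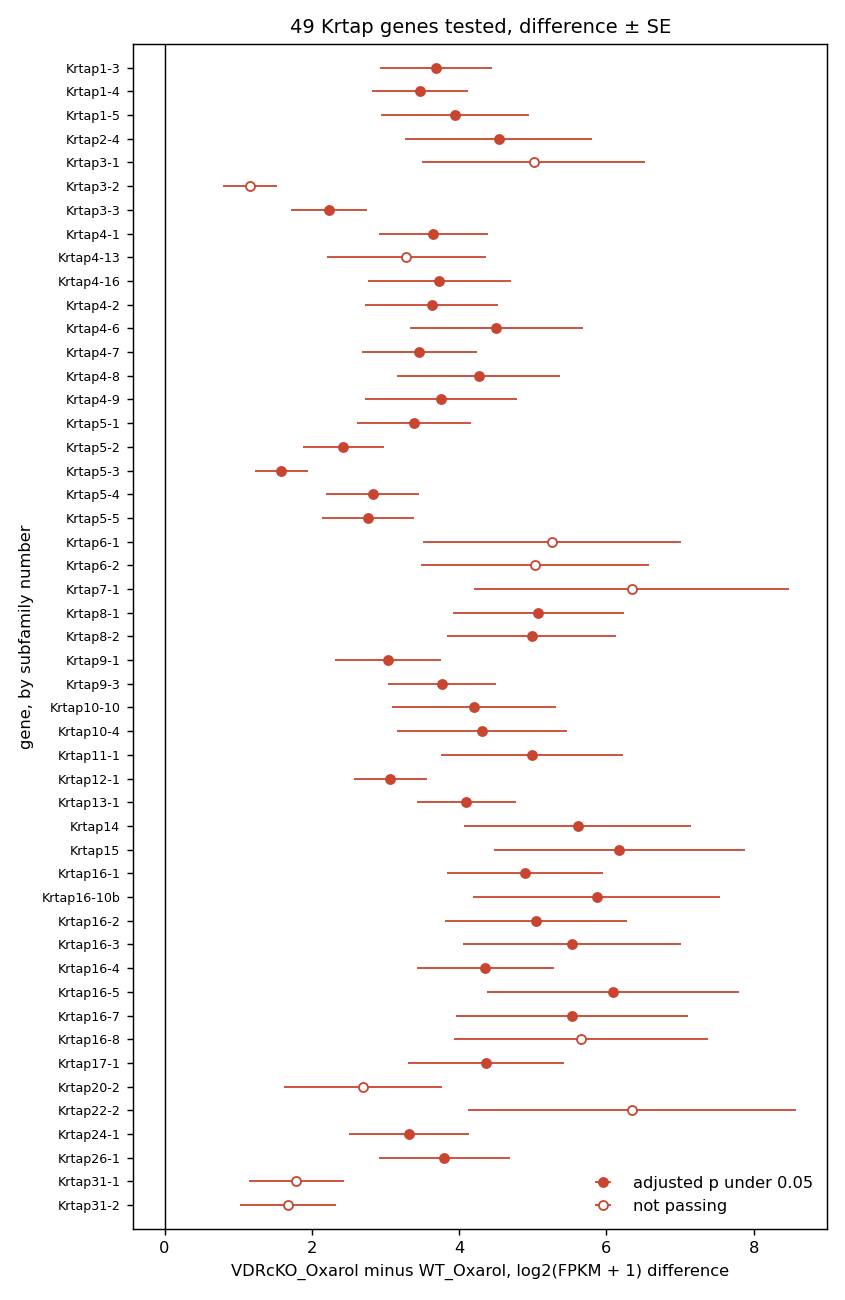
Difference between VDRcKO_Oxarol and WT_Oxarol on the log2(FPKM + 1) scale with its standard error for the 49 members tested, in order of subfamily. Filled points passed the adjusted threshold and open points did not; all 49 lie above 0, from 1.16 for Krtap3-2 to 6.35 for Krtap22-2.

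Several of the largest differences did not pass. The 11 members that did not pass had a median SE of 1.51, against 0.99 for the 38 that did. Their median level in WT_Oxarol 1 was 9.77 FPKM, against 1.41 FPKM for the 38. Krtap22-2, a high glycine-tyrosine member, was 29.8, 0.638 and 0 FPKM in WT_Oxarol and 481, 341 and 165 FPKM in VDRcKO_Oxarol. Its difference was 6.35 ± 2.22 (SE; limma adjusted p = 0.0809). Krtap7-1, of the same class, was 28.0, 1.09 and 0 FPKM in WT_Oxarol and 567, 329 and 172 FPKM in VDRcKO_Oxarol, a difference of 6.34 ± 2.14 (SE; limma adjusted p = 0.0722). For both genes the groups did not overlap, and WT_Oxarol 1 alone among the WT_Oxarol libraries exceeded 2 FPKM. Both members of subfamily 6, Krtap20-2, Krtap16-8 (RefSeq Krtap6-5), both members of subfamily 31 and Krtap4-13 did not pass either.

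By subfamily, the tested members of subfamilies 1, 2, 11, 13 to 15, 24 and 26, known as high sulfur proteins, all rose. Of the 3 genes of subfamily 3, of the same class, 1 passed. Krtap3-1 and Krtap3-2 also lay above WT_Oxarol, by 5.02 and 1.16, without passing (limma adjusted p = 0.0525 and 0.0610). The contrast between these subfamilies was not tested. Krtap1-3, Krtap13-1 and Krtap24-1 met the filter only with the help of VDRcKO_Oxarol libraries. All 3 Krtap1 genes, Krtap2-4, Krtap11-1, Krtap13-1, Krtap14, Krtap15, Krtap24-1 and Krtap26-1 passed. Krtap15 had the largest difference of these, at 7.96, 0.359 and 0 FPKM in WT_Oxarol and 274, 155 and 106 FPKM in VDRcKO_Oxarol, a rise of 6.18 ± 1.70 (SE; limma adjusted p = 0.0408). WT_PBS 3, at 99.4 FPKM, was just below the lowest VDRcKO_Oxarol value. Krtap11-1 was 4.33, 0.0940 and 0 FPKM in WT_Oxarol and 99.4, 55.2 and 32.0 FPKM in VDRcKO_Oxarol, a rise of 4.99 ± 1.24 (SE; limma adjusted p = 0.0294).

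Krtap14 was 5.58, 0.232 and 0.190 FPKM in WT_Oxarol and 164, 98.8 and 67.8 FPKM in VDRcKO_Oxarol. WT_PBS 3 held 73.2 FPKM of it, more than VDRcKO_Oxarol 3. Krtap2-4 was 3.96, 0.131 and 0.395 FPKM in WT_Oxarol and 83.5, 42.5 and 25.6 FPKM in VDRcKO_Oxarol. Krtap1-5 was 1.20, 0.316 and 0 FPKM in WT_Oxarol and 41.2, 21.6 and 10.04 FPKM in VDRcKO_Oxarol. The highest WT_untreated value of Krtap2-4 was 13.4 FPKM and that of Krtap1-5 was 4.82 FPKM, both in WT_untreated 3. Krtap24-1 and Krtap26-1 reached 14.0 and 27.6 FPKM at most in VDRcKO_Oxarol and 0.570 and 2.30 FPKM at most in WT_Oxarol.

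Of the ultra-high sulfur subfamilies, 7 of 8 Krtap4 genes, all 5 Krtap5 genes, both tested Krtap9 genes and Krtap17-1 rose. Both Krtap10 genes and Krtap12-1, given no class here, rose too. Krtap4-7, Krtap5-2, Krtap5-3, Krtap5-4, Krtap5-5, Krtap9-3 and Krtap12-1 met the filter only with the help of VDRcKO_Oxarol libraries, so high values there were part of their selection. Krtap4-6, the highest of subfamily 4, was 2.99, 0.176 and 0 FPKM in WT_Oxarol and 73.4, 37.4 and 18.1 FPKM in VDRcKO_Oxarol, a rise of 4.50 ± 1.17 (SE; limma adjusted p = 0.0347). Krtap5 had the smallest median difference of these, at 2.76, with a range of 1.58 to 3.39. Krtap5 genes were also low, with means of 2.31 to 13.9 FPKM in VDRcKO_Oxarol. The log2(FPKM + 1) scale understates changes of low genes. Krtap5-1 was 1.17, 0.154 and 0 FPKM in WT_Oxarol and 17.03, 16.4 and 8.21 FPKM in VDRcKO_Oxarol. Krtap17-1 was 2.98, 0.136 and 0 FPKM in WT_Oxarol and 37.7, 41.2 and 23.1 FPKM in VDRcKO_Oxarol. Krtap10-4 was 2.33, 0 and 0 FPKM in WT_Oxarol and 37.4, 39.1 and 15.96 FPKM in VDRcKO_Oxarol.

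Among the subfamilies with glycine-tyrosine-rich members, both Krtap8 genes and 7 of 8 Krtap16 genes passed, and none of the 5 members of subfamilies 6, 7, 20 and 22 did. The difference between these subfamilies was not tested. Krtap8-2, Krtap16-1, Krtap16-2, Krtap16-4 and Krtap20-2 met the filter only with the help of VDRcKO_Oxarol libraries. Krtap16-5 (RefSeq Krtap19-3), the highest of subfamily 16, was 5.79, 1.17 and 0 FPKM in WT_Oxarol and 196, 182 and 127 FPKM in VDRcKO_Oxarol, a rise of 6.09 ± 1.71 (SE; limma adjusted p = 0.0431). Krtap8-1 was 2.35, 0.201 and 0 FPKM in WT_Oxarol and 90.2, 72.7 and 21.98 FPKM in VDRcKO_Oxarol. Krtap6-1 was 12.9, 0.467 and 0.475 FPKM in WT_Oxarol and 186, 129 and 68.9 FPKM in VDRcKO_Oxarol, and its difference of 5.26 ± 1.76 (SE) did not pass (limma adjusted p = 0.0702). Subfamily 31 was low throughout, and Krtap31-1 was 9.78, 1.93 and 0.441 FPKM in VDRcKO_Oxarol against 1.82 FPKM in WT_PBS 3.

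By position in RefSeq, members fall into 4 gene clusters. The cluster with subfamilies 6, 7, 8, 11, 13 to 15, 16 and 20 to 27 supplied 75.6% of the family's FPKM outside subfamily 3 in WT_untreated 3, 86.1% in WT_PBS 3, 80.0% in WT_Oxarol 1 and 80.0%, 82.9% and 85.2% in VDRcKO_Oxarol. Its median difference between VDRcKO_Oxarol and WT_Oxarol was 5.08, with 15 of 21 tested members higher. The cluster with subfamilies 1, 2, 3, 4, 9, 17 and 31 had a median of 3.67, with 15 of 20 higher. These medians also depend on level, since the log2(FPKM + 1) scale understates changes of low genes. All 5 tested members of the Krtap5 cluster and all 3 of the Krtap10 and Krtap12 cluster were higher. The counts of each cluster include members that met the filter only with the help of VDRcKO_Oxarol libraries, among them every Krtap5 gene except Krtap5-1.

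Within VDRcKO_Oxarol the levels of the 52 members spanned a wide order. Mean levels over the 3 libraries were 356 ± 199 (SD, n = 3) FPKM for Krtap7-1, 329 ± 159 for Krtap22-2, 270.5 ± 149 for Krtap3-1 and 178 ± 86.2 for Krtap15. The gaps between neighbours among the first 3 are smaller than their SDs, and the gap between Krtap3-1 and Krtap15 is smaller than the SD of Krtap3-1 but not that of Krtap15. These 4 genes made up 36.2% of the summed mean and the top 10 made up 61.0%. Krtap13 was listed at 0 in all 3 libraries and at 0.00392 FPKM in WT_PBS 3 alone. VDRcKO_Oxarol 1 held the highest value of the 12 libraries for 40 members, VDRcKO_Oxarol 2 for 10, and WT_PBS 3 for Krtap13 and Krtap16-2, the last 2 being named after their values were seen.

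**Figure D4:**
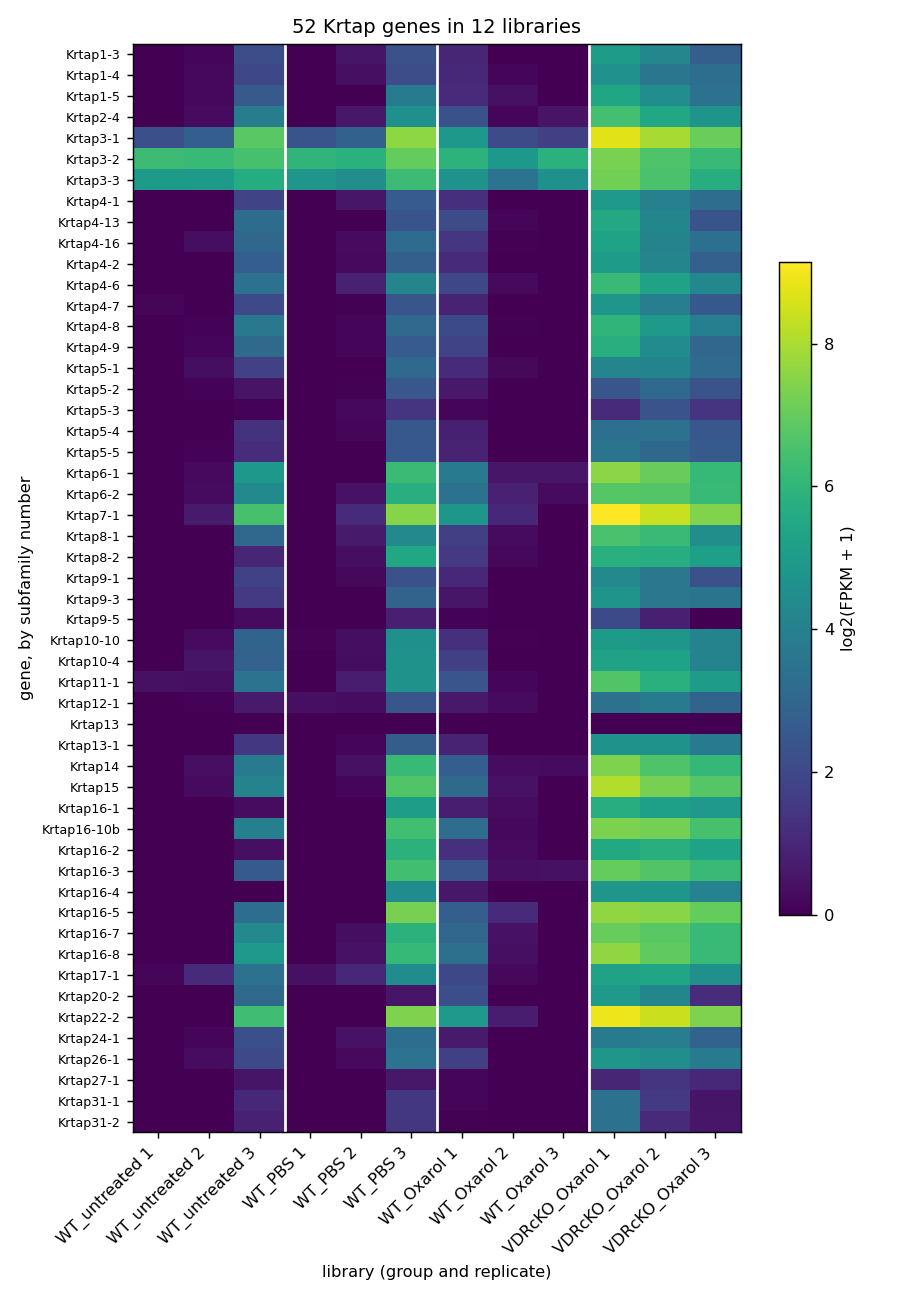
Level of each of the 52 Krtap genes (rows, by subfamily number) in each of the 12 libraries (columns, white lines between groups), coloured by log2(FPKM + 1). WT_untreated 3, WT_PBS 3, WT_Oxarol 1 and the 3 VDRcKO_Oxarol libraries have 35 to 50 members at 1 FPKM or more, and the other libraries have 3 to 5.

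Against all wild-type libraries, the separation was narrower. With no filter, all 3 VDRcKO_Oxarol libraries were above all 9 wild-type libraries for 24 of the 52 members, against 9.95% of all symbols. This held for 23 of the 49 tested, against 15% of all genes tested. Of the 49, 17 passed the filter only with the help of VDRcKO_Oxarol libraries, so high values there were part of their selection. WT_PBS 3 was above the lowest VDRcKO_Oxarol library for 25 members. VDRcKO_Oxarol 3 was higher than WT_PBS 3 for 28 members and lower for 24. VDRcKO_Oxarol 3 was lower than VDRcKO_Oxarol 2 for 51 members, and VDRcKO_Oxarol 1 was higher than VDRcKO_Oxarol 2 for 40. The median ratio of VDRcKO_Oxarol 1 to VDRcKO_Oxarol 3 was 2.58.

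The comparison of VDRcKO_Oxarol with WT_untreated uses the same VDRcKO_Oxarol libraries. Here 38 of 49 members rose and 0 fell, against 12.8% of all genes higher and 6.2% lower, with a median difference of 3.56 against 0.08 over all genes. Among the 32 members that had 1 FPKM in at least 3 wild-type libraries, 24 rose. The groups did not overlap for 43 of 49, against 24.4% of all genes. The 49 include the 17 members that passed the filter only with the help of VDRcKO_Oxarol libraries. The count of 38 became 9, 8 and 22 without VDRcKO_Oxarol 1, 2 and 3, 11 without WT_untreated 1 and 16 without WT_untreated 2. The share of all genes called in either direction was 8.45%, 7.91%, 10.3%, 14.7% and 18.4% in these settings. With all libraries it was 19.0%. Within the second code series, with WT_untreated 3 as the only untreated library, the median was 1.90. With the series as a term 6 rose, where 7.89% of all genes were called in either direction. Krtap12-1 had the smallest p, with a rise of 3.12 ± 0.49 (SE; limma adjusted p = 0.00463).

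Krtap13-1 was 0, 0 and 1.79 FPKM in WT_untreated, and its rise in VDRcKO_Oxarol was 3.90 ± 0.67 (SE; limma adjusted p = 0.00616). Krtap16-4 (RefSeq Krtap19-4) was listed at 0 in all 3 WT_untreated libraries and was 26.5, 27.2 and 15.5 FPKM in VDRcKO_Oxarol (limma adjusted p = 0.0118). Krtap16-1 was 0, 0 and 0.221 FPKM in WT_untreated and 50.8, 34.9 and 29.0 FPKM in VDRcKO_Oxarol, a rise of 5.16 ± 1.06 (SE; limma adjusted p = 0.0121). Krtap1-4 was 0, 0.136 and 2.98 FPKM in WT_untreated, and rose by 3.12 ± 0.65 (SE; limma adjusted p = 0.0125). Krtap3-2 overlapped between these groups, with a difference of 0.38 ± 0.37 (SE; limma adjusted p = 0.481). Krtap12-1, Krtap13-1, Krtap16-1, Krtap16-4 and Krtap1-4 were picked by smallest p in these same data. Apart from the second code series alone, where calls are not counted, they kept their calls against WT_untreated in every alternative setting. All of them except Krtap1-4 passed the filter only through the VDRcKO_Oxarol libraries.

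The comparison of WT_Oxarol with WT_PBS asks what the ointment did in wild-type ears. By limma, 0 of 49 members rose and 0 fell, against 0.249% of all genes higher and 0.0569% lower, and 0 had an unadjusted p under 0.05. The median difference was -0.74, against 0.01 over all genes, and 48 of the 49 lay below 0, but groups overlapped for all 49, where 7.53% of all genes were higher and 8.36% lower without overlap. The median turned to 0.37 without WT_PBS 3. Krtap3-2 and Krtap3-3 had the smallest p, with differences of -0.72 ± 0.37 (SE; limma adjusted p = 0.753) and -0.95 ± 0.52 (SE; limma adjusted p = 0.784). Krtap12-1, Krtap5-3 and Krtap16-4 followed, at -0.74 ± 0.49, -0.49 ± 0.36 and -1.29 ± 0.93 (SE). Krtap5-3 was 0, 0.160 and 1.61 FPKM in WT_PBS and 0.0837, 0 and 0 FPKM in WT_Oxarol. Within the first code series only 5 members passed the filter, of which 0 were called, with a median of 0.38. Within the second each group has 1 library, and all the spread comes from the VDRcKO_Oxarol libraries. There the median was -3.49, which compares 2 libraries and not the groups, so calls are not counted.

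The comparison of WT_PBS with WT_untreated gives the change with PBS alone. By limma, 0 of 49 members rose and 0 fell, against 0.00711% of all genes higher and 0% lower, and 0 had an unadjusted p under 0.05. The median difference was 0.45, with 44 members above 0, and was -0.76 without WT_PBS 3. Within the first code series 0 of the 5 members that passed the filter were called, with a median of 0.09. Within the second, where again 1 library stands for each group and the spread is that of VDRcKO_Oxarol, the median was 1.20. Krtap12-1, Krtap16-4, Krtap16-1, Krtap16-2 and Krtap8-2 had the smallest p, with differences of 0.79 to 1.83 and limma adjusted p between 0.631 and 0.679.

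The last 4 of these are among the 6 genes counted as Krtap19 by their RefSeq names. Of the 6, Krtap16-5 and Krtap16-10b were 8.80 and 14.5 FPKM in WT_untreated 3, whereas the 4 with small p were near 0 there. They were 0.221 (Krtap16-1), 0.306 (Krtap16-2), 0 (Krtap16-4) and 0.955 (Krtap8-2) FPKM there, although that library had 41 members at 1 FPKM or more. In WT_PBS 3 the same genes were 33.1, 58.1, 20.7 and 42.2 FPKM. Their VDRcKO_Oxarol values, in the order of the libraries, were 46.5, 52.1 and 38.8 FPKM for Krtap16-2 and 55.4, 50.4 and 34.5 FPKM for Krtap8-2. Krtap20-2 went the other way: it was 8.06 FPKM in WT_untreated 3, 0.435 FPKM in WT_PBS 3, 3.61 FPKM in WT_Oxarol 1 and 29.96, 17.2 and 1.23 FPKM in VDRcKO_Oxarol.

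The make-up of the family varied among the 6 libraries rich in Krtap RNA in an order that did not follow the groups. The 6 genes counted as Krtap19, summed, were 0.114 of the sum of the 4 genes of Krtap6, Krtap7 and Krtap22 in WT_untreated 3 and 0.234 in WT_Oxarol 1. The ratio was 0.401, 0.549 and 0.698 in VDRcKO_Oxarol 1 to 3 and 0.826 in WT_PBS 3. The 8 Krtap4 genes went in nearly the reverse order, at 0.258 of the same sum in WT_untreated 3, 0.269, 0.185 and 0.151 in VDRcKO_Oxarol and 0.122 in WT_PBS 3, with 0.216 in WT_Oxarol 1. The divisor follows the symbols of the files. With Krtap16-8 (RefSeq Krtap6-5) added to it, a choice made after seeing the data, the Krtap19 ratio ran in the same order, from 0.1001 in WT_untreated 3 to 0.722 in WT_PBS 3. VDRcKO_Oxarol 3 and WT_PBS 3 were neighbours in both ratios although they differ in group. These are single libraries, described and not tested.

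**Figure D5:**
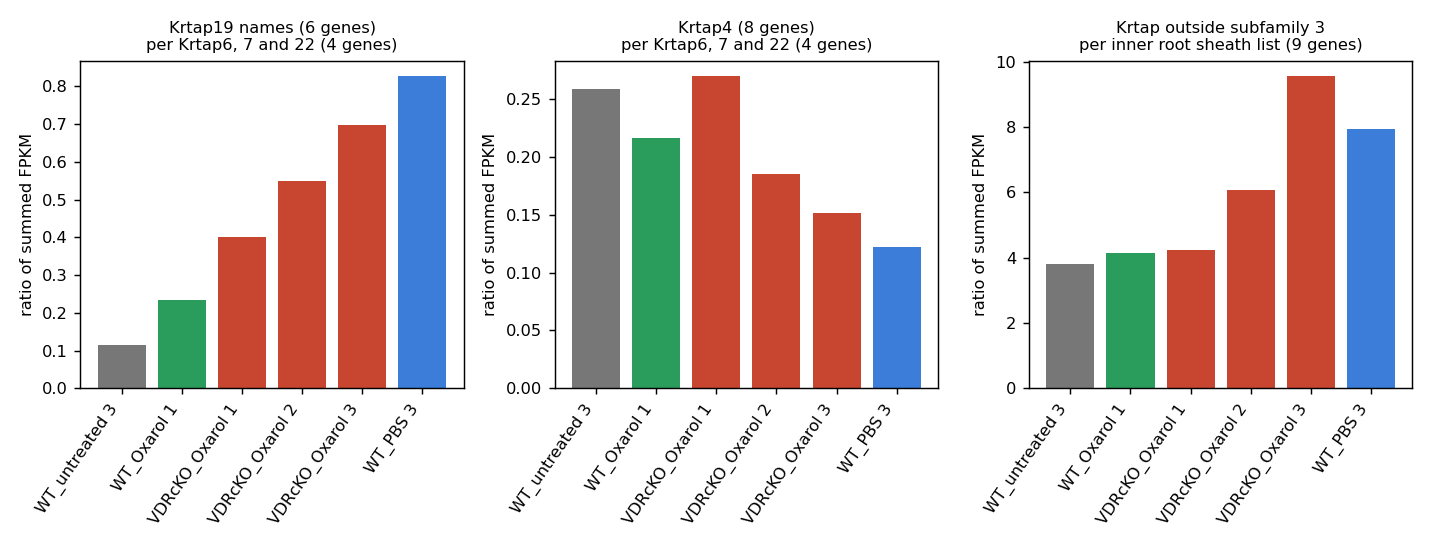
Ratios of summed FPKM in the 6 libraries with over 100 FPKM of Krtap RNA outside subfamily 3, in the same order of libraries in each panel: Krtap19-named genes to Krtap6, 7 and 22 (left), Krtap4 to Krtap6, 7 and 22 (middle), and Krtap outside subfamily 3 to the inner root sheath list (right). The left ratio runs from 0.114 to 0.826, and VDRcKO_Oxarol 3 and WT_PBS 3 have the highest 2 values in the left and right panels.

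Other hair genes moved with the family. In VDRcKO_Oxarol against WT_Oxarol, 12 of 13 tested hair shaft keratins rose (15 are listed), against 8.71% of all genes, with a median difference of 3.69. The keratin sum was 563, 347 and 174 FPKM in VDRcKO_Oxarol, 195 FPKM in WT_PBS 3 and 1.66 to 81.2 FPKM in the other wild-type libraries. Krt33a, the most abundant, was 164, 86.8 and 42.7 FPKM in VDRcKO_Oxarol and 9.73, 0.177 and 0 FPKM in WT_Oxarol, and was the 1 tested keratin that did not pass (5.21 ± 1.66, SE; limma adjusted p = 0.0618). Krt32, a keratin of the hair cuticle, rose by 2.54 ± 0.38 (SE; limma adjusted p = 0.00721). Krtap RNA outside subfamily 3 was 5.86 to 8.70 times the keratin sum in the 6 Krtap-rich libraries.

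Of the inner root sheath and companion layer list, whose cells surround the growing shaft, 6 of 8 tested genes rose and 10 are listed, against 8.71% of all genes higher. Krt71 was 8.91, 0.423 and 0.251 FPKM in WT_Oxarol and 259.9, 134 and 49.2 FPKM in VDRcKO_Oxarol (limma adjusted p = 0.0448). Krtap RNA outside subfamily 3 was 4.25, 6.06 and 9.55 times this list's sum in VDRcKO_Oxarol 1 to 3, 7.94 times in WT_PBS 3, 3.81 times in WT_untreated 3 and 4.15 times in WT_Oxarol 1. Of 5 tested other shaft proteins 3 rose, and of 11 tested transcription factors and signals 3 rose with a median of 0.23, against the same 8.71%. S100a3, a calcium-binding protein of the hair cuticle, rose by 3.80 ± 0.74 (SE; limma adjusted p = 0.0148), and it too had a base in the low libraries, at 6.17 to 33.1 FPKM. Hoxc13, a regulator of hair keratin genes, was 1.89 to 2.94 FPKM in VDRcKO_Oxarol and 0.676 to 1.15 FPKM in WT_Oxarol, a rise of 0.77 ± 0.17 (SE; limma adjusted p = 0.0196). Gata3 was the most abundant of its list, at 123 to 126 FPKM in VDRcKO_Oxarol and 134 to 228 FPKM in WT_Oxarol, and did not pass (limma adjusted p = 0.0666).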

How the data were processed

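RNA from ear skin in 12 libraries was sequenced by the authors, and the deposited values are FPKM per gene symbol. The tools were Cufflinks 2.1.1, TopHat2 2.0.8 and Bowtie2 2.1.0, on mm9, per the submitters' processing notes. Annotation and strand setting: not given in the sources used here. The unit was read from the values and tools. Values were analysed as log2(FPKM + 1) with limma 3.58.1 (R 4.3.3), an intensity trend and 4 group means. Genes needed 1 FPKM or more in 3 or more libraries, and p-values were adjusted by Benjamini-Hochberg over all 14059 genes at 0.05. The log scale understates changes of low genes. The script was tested on simulated data. The members and lists were chosen with earlier results of these data known. Members given with values are the highest of each subfamily by mean FPKM and the 5 with the smallest p in each comparison; of each hair list, the highest and up to 4 with the smallest p could be named. Relative depth came from the commonest ratio of low values between libraries. No protein sequence was read here. The sulfur and glycine-tyrosine classes named are those commonly given to the subfamilies and were not checked. Alternatives covered the pseudocount, filter, normalization, groups fitted, code series, variance model and left-out libraries.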

Additional observations from a re-analysis of the deposited data

How the results depend on the processing

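With a pseudocount of 0.1, 15 members rose in VDRcKO_Oxarol against WT_Oxarol (median 6.08) and 15 against WT_untreated (median 5.39), in place of 38 each. The shares of all genes called in either direction were then 10.5% and 17.1%, in place of 13.1% and 19.0%. With no filter the counts were 9 and 15, with the code series as a term 2 and 6, within the second series alone 24 and 13 (median 1.90 against WT_untreated), and with a robust variance model 23 and 20. The second-series counts rest on 1 WT_Oxarol and 1 WT_untreated library, and all the spread comes from the VDRcKO_Oxarol libraries. They say nothing about the groups and are not used as results. Leaving out 1 library gave counts of 2 to 45 against WT_Oxarol and 8 to 45 against WT_untreated. The lowest came without WT_Oxarol 2 and without VDRcKO_Oxarol 2. Over all genes, leaving out 1 library gave shares called of 2.30% to 24.5% against WT_Oxarol and 7.91% to 20.7% against WT_untreated. The second series alone gave a median of -3.49 for WT_Oxarol against WT_PBS and 1.20 for WT_PBS against WT_untreated. With 1 library in each of these groups, calls there say nothing about the groups and are not counted. In the other settings the counts were 0. Without WT_untreated 3 and WT_PBS 3 together, 46 of 47 tested members rose in each VDRcKO_Oxarol comparison. The shares of all genes called in either direction were then 13.9% against WT_Oxarol and 17.9% against WT_untreated. In the main fit 24 of 31 named members were called against WT_Oxarol, 5 of 5 in VDRcKO_Oxarol against WT_untreated and 0 of 5 in each wild-type comparison. With the code series as a term 22 of the 24 lost the call, as did 22 without WT_Oxarol 2. The values below pool all 4 comparisons, and a member not called cannot lose the threshold. Of 1001 values of single members under the alternatives, 796 kept direction and side of the threshold, 173 lost the threshold, 27 gained it and 5 changed sign. Those 5 all left out WT_PBS 3. For WT_Oxarol against WT_PBS, Krtap16-4 had 0.19 without that library or without it and WT_untreated 3, and leaving out single libraries gave -2.03 to 0.19. For WT_PBS against WT_untreated, the ranges were -0.10 to 2.45 for Krtap16-1, -0.13 to 2.81 for Krtap16-2 and -0.16 to 2.56 for Krtap8-2, each with its lowest value without WT_PBS 3. The cause was not tested. No paired analysis was possible because the replicate numbers follow the order of deposit. FPKM keep no counts, so counting error is unknown, and a value listed at 0 can be a failed estimate.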
